A study of Mus musculus with 24 samples.

Results

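Cells of the mouse jejunum sorted for the presence or absence of Venus fluorescence were compared by RNA sequencing. The 3 Venus-positive and 3 Venus-negative jejunum libraries are 6 of the 24 libraries of the series, and they were taken by the tissue and the sort that their labels give. Both sorts came from Guca2a-Venus mice, in which the yellow fluorescent protein Venus is expressed from a bacterial artificial chromosome under the control of *Guca2a*, the gene of the peptide guanylin. The transgenic line goes back to 1 founder, made on a mixed C57Bl6J and CBA background and then crossed to C57Bl6J for a varying number of generations, and the animals ate standard chow. Age and sex are not given in the sources used here. Tissue from the middle of the small intestine was broken down to single cells with EDTA and trypsin. Cells of high fluorescence and cells without fluorescence were collected by flow cytometry after removal of dead cells (DAPI-positive), debris (DRAQ5-negative) and immune cells (CD45-positive). Every library therefore came from animals with the transgene, and tissue without the reporter was not analysed here. The labels do not name the mouse, so positive and negative libraries were not paired, and p-values measure only the spread between these libraries.

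Guanylin and its relative uroguanylin are small peptides that the gut epithelium releases mostly into the lumen. They bind guanylate cyclase C on the apical membrane, and the cGMP made there opens the chloride channel CFTR and inhibits sodium uptake through the exchanger NHE3. The jejunal epithelium is renewed from stem cells at the base of the crypts. Daughter cells divide, leave the crypt and mature on the villus, mostly as absorptive enterocytes with a dense brush border of microvilli, hydrolases and transporters. Goblet, Paneth, enteroendocrine and tuft cells form the secretory branch. The genes of these cells and processes are described below by role, followed by gene families taken by their symbols.

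The 6 libraries held 13719831, 18878119 and 13398507 reads on genes for Venus-positive cells and 18771325, 20120064 and 16407035 for Venus-negative cells. Genes of the mitochondrial genome took 50.05%, 60.62% and 47.07% of these counts in positive and 78.83%, 76.9% and 61.21% in negative libraries, nearly all of it ribosomal RNA. The difference of -19.7 percentage points gave p = 0.1 in an exact two-sided permutation test, which is the smallest p that 3 against 3 libraries allow. Counts on nuclear protein-coding genes were accordingly deeper in positive libraries (5270889 to 6401484) than in negative libraries (2979359 to 4325222). With the smaller total, negative libraries still had more nuclear protein-coding genes with at least 10 counts, 10705 to 11258 against 9799 to 9957. A count of 3 was taken as the floor of detection and corresponds to 0.1672 to 0.2275 CPM (read counts scaled to library size, with TMM factors). The floor covers counting error only, since the libraries carry no molecular identifiers. The mitochondrial share moves with the sort, and the median log2 fold change over nuclear protein-coding genes was -0.24 with all genes scaled together and -0.19 when these genes alone were counted and scaled. The labels also give the sequencing index, and replicate 3 of each sort carried another i5 index (D502) than replicates 1 and 2 (D501). Without both replicate 3 libraries, an alternative chosen after seeing the data, 2391 genes were higher and 3369 lower in the jejunum, against 2749 and 3851 with all 6.

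Of 53465 genes in the table, 15044 passed a filter on low counts and were tested by edgeR's quasi-likelihood test. At an adjusted p below 0.05 (Benjamini-Hochberg over all genes tested), 18.3% of them were higher and 25.6% lower in Venus-positive cells, and these shares are the background for each list of genes below. The median log2 fold change (positive over negative) over all genes tested was -0.28, and it lay between -0.33 and 0.03 under the other scalings, filters and left-out libraries. Calls in the positive direction were smaller (median 1.61 on the log2 scale) than calls in the negative direction (median 2.51). The split of calls moved with the scaling, from 2749 higher and 3851 lower to 3339 and 2943 with libraries scaled by size alone, and to 3562 and 3135 with offsets for GC content and length of genes. In 22.6% of the genes every positive library lay above every negative library, and in 29.9% the reverse held. Among 12500 protein-coding genes 2645 were higher and 3469 lower. Among classes other than protein-coding genes, 7 of 479 processed pseudogenes were higher and 143 lower, and 16 of 268 lincRNAs were higher and 52 lower. In a bulk comparison of sorted cells, fewer cells of a type and less RNA of that type per cell cannot be told apart.

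**Figure D1:**
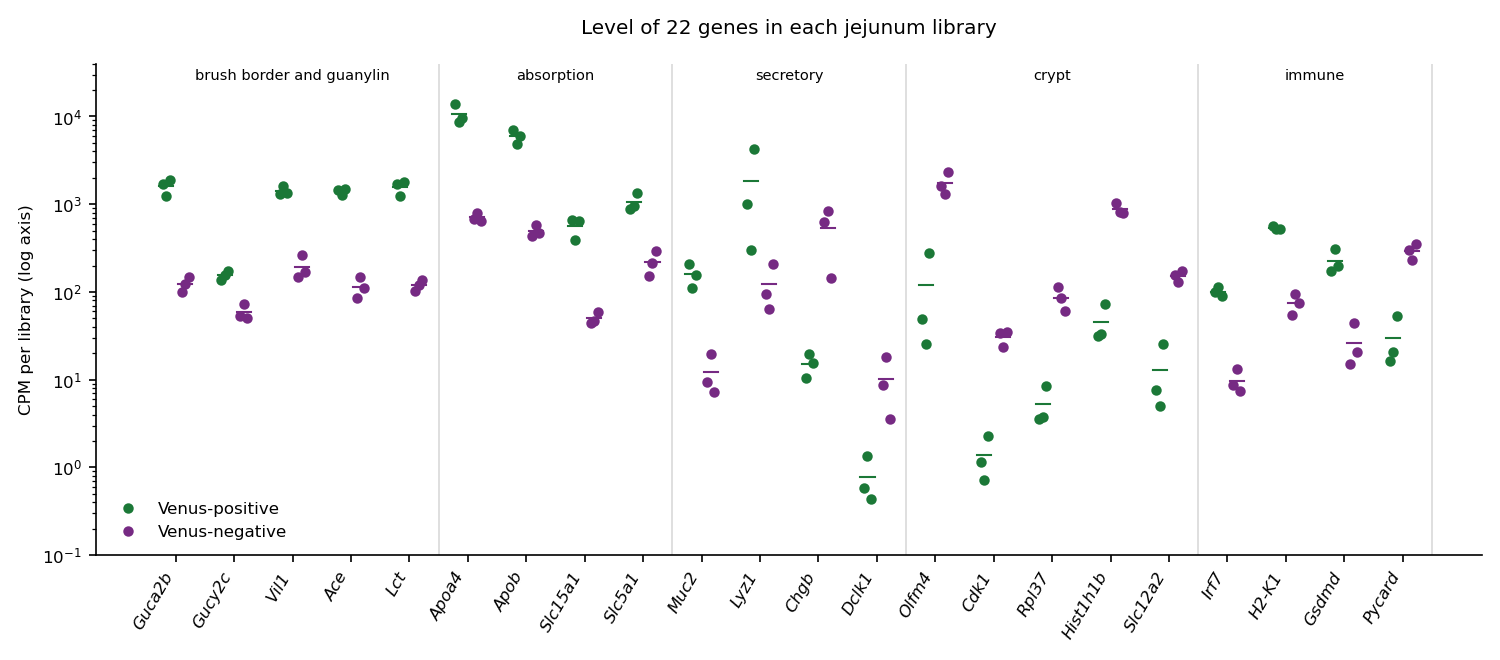
Level of 22 genes in each of the 6 jejunum libraries, in CPM on a log axis. Each point is 1 library (green, Venus-positive; purple, Venus-negative) and the short line is the mean of the 3 libraries. The points of the 2 sorts do not overlap for any gene shown, *Lyz1* ranges widely among positive libraries (1016, 302 and 4262 CPM), and among positive libraries *Olfm4* is highest in replicate 3.

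The sort was checked on the enterocyte markers *Guca2b*, *Vil1*, *Alpi* and *Mep1a*. *Guca2b*, which encodes uroguanylin, was at 1685, 1231 and 1877 CPM in positive and 99.7, 123 and 149 CPM in negative libraries. *Vil1*, the actin-bundling protein villin of microvilli, was at 1307, 1608 and 1339.9 CPM against 149.6, 263 and 169 CPM. *Guca2a* itself was at 150.1, 104 and 206 against 24.3, 21.5 and 27.7 CPM, but its reads cannot separate the gene from untranslated sequence kept on the transgene. The sorts did not overlap for these 3 genes, and the 8 markers listed gave 7 higher, 0 lower and 1, the transcription factor *Batf2*, that did not pass (log2 fold change 0.92, adjusted p = 0.135). Among the higher, *Khk* (log2 fold change 0.84, adjusted p = 0.024) was not called without negative replicate 1, negative replicate 2 or positive replicate 3 (adjusted p = 0.0576, 0.134 and 0.131). The tissue label was compared with regional genes. *Fabp6* and *Slc10a2*, the bile acid binding protein and bile acid importer of the terminal ileum, were at 4.87 and 2.26 CPM on average in positive libraries of the jejunum, against 1301 and 675 CPM in the ileum. *Apoa4* was at 10789 CPM against 59.4 in the ileum and 14.1 in the colon.

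Around the guanylin receptor, 17 of 19 listed genes were tested, of which 10 were higher and 5 lower. Among the higher genes, *Slc9a3r1*, the scaffold NHERF1 that anchors transporters to the cytoskeleton, was at 859, 1118 and 713 CPM in positive and 70.2, 164 and 78.5 CPM in negative libraries (log2 fold change 3.10 ± 0.37 (SE), adjusted p = 2.24e-07). *Pde9a*, a phosphodiesterase that degrades cGMP, was at 84.4, 131 and 83.4 against 16.7, 24.7 and 30.9 CPM (log2 fold change 2.04 ± 0.30 (SE), adjusted p = 2.77e-06). *Slc9a3*, the sodium-hydrogen exchanger NHE3, had a log2 fold change of 2.16, *Prkg2*, the membrane-bound cGMP-dependent kinase, 1.77, and the bicarbonate carriers *Slc26a6* and *Slc4a4* 2.47 and 1.57, all with adjusted p of at most 0.00258. Among the lower genes, *Slc12a2*, the basolateral sodium-potassium-chloride carrier NKCC1 that loads cells with chloride, was at 7.60, 5.07 and 25.8 CPM in positive and 154, 129.5 and 172 in negative libraries (log2 fold change -3.57 ± 0.42 (SE), adjusted p = 2.04e-07). The basolateral potassium channel formed by *Kcnq1* and *Kcne3* was also lower, with log2 fold changes of -3.04 ± 0.37 and -4.07 ± 0.61 (SE). *Cftr* itself was at 12.2, 10.1 and 24.05 against 60.9, 52.9 and 79.7 CPM (log2 fold change -2.06 ± 0.38 (SE), adjusted p = 6.33e-05). Positive replicate 3 held the highest positive value of *Slc12a2*, and no library of one sort reached the other for any of these 4 genes. *Slc26a3*, the chloride-bicarbonate exchanger, showed no call (log2 fold change 0.05, adjusted p = 0.932).

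Nearly the whole of the brush border list was higher in Venus-positive cells. All 20 genes of microvillus structure were tested, and 19 were higher and 0 lower, with a median log2 fold change of 2.62 beside -0.28 over all genes tested. *Cdhr2*, a protocadherin that links the tips of neighbouring microvilli, was at 1519.6, 1501 and 1339 CPM in positive and 103, 189.7 and 136 CPM in negative libraries (log2 fold change 3.34 ± 0.38 (SE), adjusted p = 1.18e-07). *Cobl*, which nucleates actin filaments, was at 375, 288 and 269.6 against 47.1, 54.0 and 42.4 CPM (log2 fold change 2.70 ± 0.31 (SE), adjusted p = 1.25e-07). *Myo7b*, the motor of the tip-link complex, was at 590.0, 535 and 440.5 against 81.0, 126 and 73.8 CPM (log2 fold change 2.48 ± 0.29 (SE), adjusted p = 1.43e-07). Values within each sort lay close together for these genes, and the smallest gap between the sorts was several-fold. Of 19 brush-border hydrolases, 18 were higher and 0 lower (median 3.06). *Ace*, the angiotensin-converting enzyme and a dipeptidase of the gut, reached 1447, 1285 and 1491 CPM against 84.2, 147 and 110.4 CPM (log2 fold change 3.63 ± 0.38 (SE), adjusted p = 4.71e-08). *Asah2*, the neutral ceramidase that digests sphingolipids of the diet, was at 700.9, 610.2 and 706.6 against 56.0, 70.1 and 66.9 CPM (log2 fold change 3.39 ± 0.35 (SE), adjusted p = 4.71e-08), and *Ggt1*, which cleaves glutathione, at 193, 238 and 217 against 11.9, 25.8 and 16.3 CPM (log2 fold change 3.58 ± 0.42 (SE), adjusted p = 1.77e-07). The disaccharidases differed in size of change, with log2 fold changes of 3.73 for lactase (*Lct*), 3.70 for trehalase (*Treh*), 2.41 for maltase-glucoamylase (*Mgam*) and 1.71 for sucrase-isomaltase (*Sis*). The 1 hydrolase not called was under the floor of detection on average in both sorts.

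**Figure D2:**
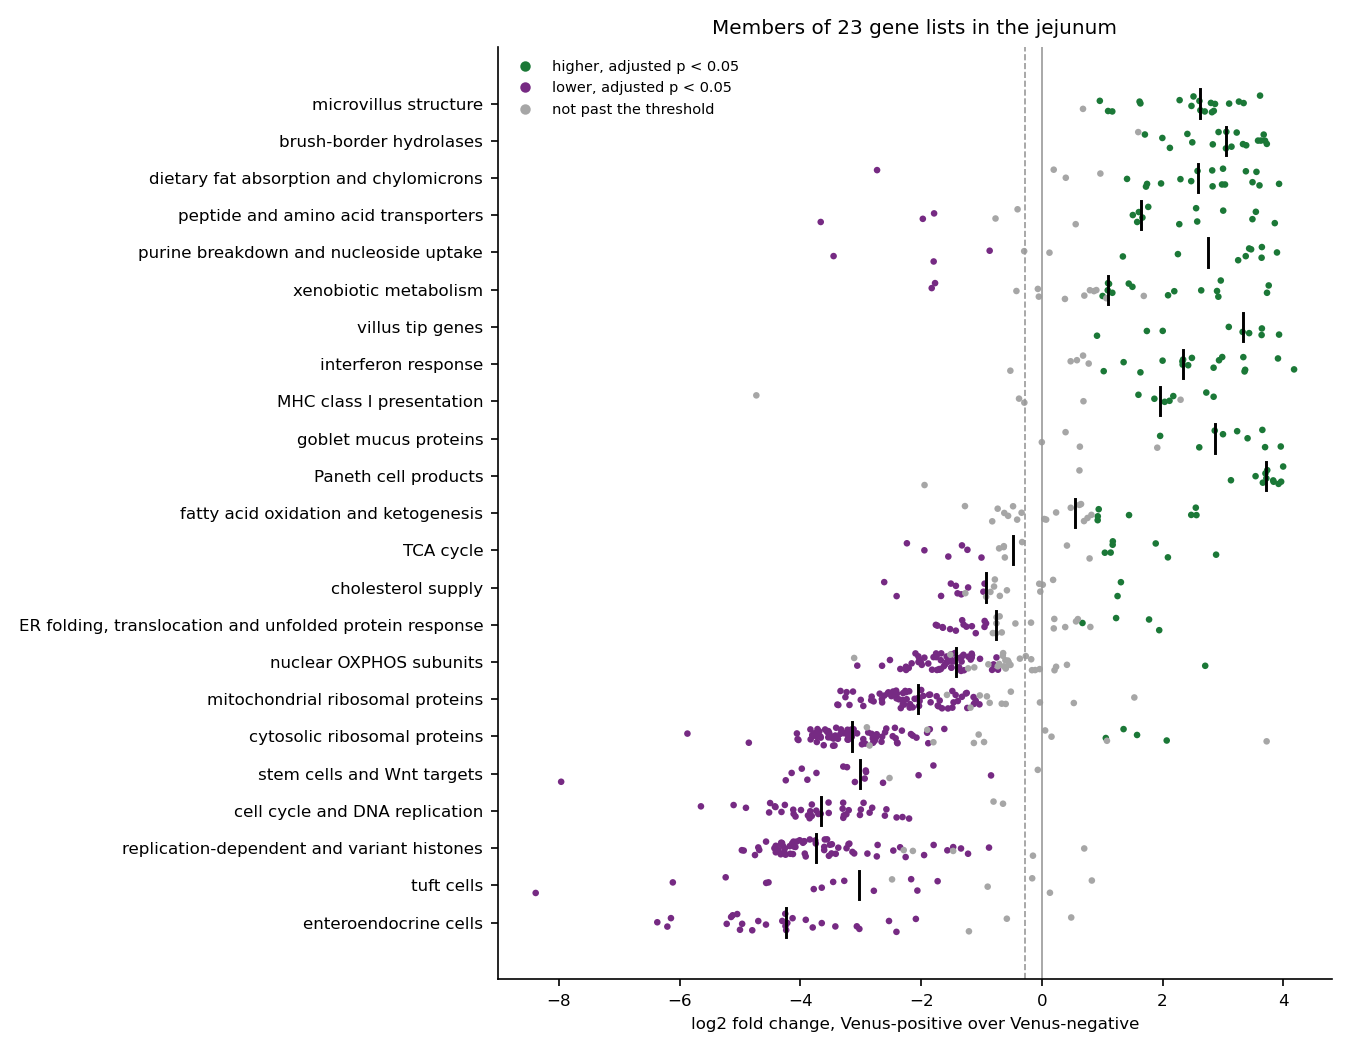
Log2 fold change (Venus-positive over Venus-negative, horizontal axis) of each tested member of 23 gene lists, 1 row per list. Green and purple points passed an adjusted p of 0.05, grey points did not, the black bar is the median of the list and the dashed line the median of all genes tested, -0.28. Brush-border and fat-absorption genes lie to the right, crypt and enteroendocrine genes to the left, and the lists of intermediary metabolism straddle the dashed line.

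Genes of dietary fat absorption and chylomicrons took 9.69%, 8.05% and 8.56% of nuclear protein-coding counts in positive and 1.2%, 1.57% and 1.3% in negative libraries. Of 21 members tested out of 22, 17 were higher and 1 lower. The chylomicron apolipoproteins led. *Apob*, the structural protein of the particle, was at 6998, 4916 and 5984 CPM in positive and 432, 573 and 465 CPM in negative libraries (log2 fold change 3.61 ± 0.43 (SE), adjusted p = 1.98e-07). *Apoa1* (chromosome 9, 46228580 to 46230466, forward strand, GRCm38), which activates the enzyme that esterifies cholesterol, was at 8018, 7679.9 and 7433 against 498, 852 and 617 CPM (log2 fold change 3.56 ± 0.47 (SE), adjusted p = 8.16e-07). Its neighbour *Apoa4* (chromosome 9, 46240696 to 46243459, forward strand, GRCm38), another chylomicron protein, was at 13999, 8690.4 and 9677 against 681, 798 and 644 CPM (log2 fold change 3.93 ± 0.54 (SE), adjusted p = 1.23e-06). For all 3 the lowest positive library lay far above the highest negative library. Uptake and binding proteins were also higher. *Npc1l1*, the cholesterol importer of the brush border, was at 758, 604 and 674 against 63.8, 105 and 79.5 CPM (log2 fold change 3.03 ± 0.36 (SE), adjusted p = 2e-07), and *Fabp1*, a fatty acid binding protein, at 427, 424 and 702.01 against 68.6, 66.1 and 84.7 CPM (log2 fold change 2.82 ± 0.38 (SE), adjusted p = 1.05e-06). *Scarb1*, a receptor for high-density lipoprotein, was the 1 lower member, at 0.255, 0.223 and 1.31 against 5.23, 5.98 and 0.484 CPM (log2 fold change -2.73 ± 0.80 (SE), adjusted p = 0.00631), with overlap between the sorts.

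For sugars, 10 of 12 genes were higher and 0 lower. The apical glucose carrier *Slc5a1* (SGLT1) was at 871, 959 and 1351 CPM in positive and 153, 216 and 291 CPM in negative libraries (log2 fold change 2.27 ± 0.33 (SE), adjusted p = 3.11e-06). *Slc2a2* (GLUT2), through which glucose leaves the cell, was at 104, 106 and 148 against 14.3, 16.3 and 15.1 CPM (log2 fold change 2.98 ± 0.40 (SE), adjusted p = 8.5e-07). *Pck1*, the enzyme that commits carbon to gluconeogenesis, was at 125, 37.8 and 89.3 against 8.11, 4.89 and 4.17 CPM (log2 fold change 3.88 ± 0.44 (SE), adjusted p = 1.33e-07). *Slc5a9*, a carrier of mannose and fructose, had a log2 fold change of 2.75. *Fbp1*, another enzyme of gluconeogenesis, did not follow (log2 fold change -0.60, adjusted p = 0.272).

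Peptide and amino acid transporters were mostly higher. Of 18, 12 were higher, 3 lower and 3 not called. The proton-coupled peptide carrier *Slc15a1* (PEPT1) was at 664, 391 and 641 CPM in positive and 44.4, 47.1 and 59.6 CPM in negative libraries (log2 fold change 3.49 ± 0.41 (SE), adjusted p = 1.85e-07). *Slc36a1*, a proton-coupled carrier of small amino acids, had 44.8, 93.8 and 63.9 against 10.9, 16.1 and 6.95 CPM (log2 fold change 2.57 ± 0.35 (SE), adjusted p = 1.23e-06), and *Slc43a2*, a carrier of large neutral amino acids, 404, 614 and 517 against 38.4, 93.7 and 59.1 CPM (log2 fold change 3.00 ± 0.42 (SE), adjusted p = 1.47e-06). *Slc7a15*, an amino acid carrier of the SLC7 family, had the smallest p of the list (log2 fold change 3.86, adjusted p = 3.48e-08). The 3 lower members were *Slc7a5* (LAT1) and *Slc1a5*, carriers of essential amino acids and of glutamine that dividing cells use, and *Slc1a1*, the apical glutamate carrier. *Slc7a5* was at 0, 0.223 and 0.729 against 4.09, 5.40 and 2.42 CPM, *Slc1a5* at 1.98, 2.17 and 4.59 against 9.10, 14.6 and 10.4 CPM and *Slc1a1* at 1.02, 9.70 and 10.9 against 17.3, 20.1 and 36.9 CPM. The sorts did not overlap for these 3 genes either.

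Over the whole solute carrier family, 259 of 371 genes passed the filter, 97 were higher, 46 lower and 116 not called (median log2 fold change 0.51). The symbol pattern also takes in the scaffold *Slc9a3r1*, which is no carrier. Among the lower carriers, besides *Slc12a2*, were *Slc1a3*, a glutamate carrier (-3.67 ± 0.45), and *Slc7a1*, a carrier of arginine and lysine (-2.83 ± 0.37). The count of lower carriers was 46 in the model of all regions and 23 when the jejunum libraries were fitted alone, with fewer genes tested. ABC transporters gave 13 higher and 6 lower of 34. *Abcg5*, a subunit of the pump that returns plant sterols and cholesterol to the lumen, was at 129.8, 180.3 and 121 against 23.1, 30.9 and 29.4 CPM (log2 fold change 2.37 ± 0.30 (SE), adjusted p = 4.85e-07), *Abca1*, which loads cholesterol onto apolipoprotein A-I, at 45.5, 88.5 and 52.8 against 8.19, 13.7 and 5.32 CPM (log2 fold change 2.78 ± 0.39 (SE), adjusted p = 1.73e-06), and *Abcc2*, an apical exporter of conjugates, at 274, 162 and 165 against 23.7, 25.7 and 27.6 CPM (log2 fold change 2.96 ± 0.34 (SE), adjusted p = 1.25e-07). The lower members included *Abcc1* (-3.75 ± 0.55), an exporter found on basolateral membranes, and *Abce1* (-2.28 ± 0.43), which recycles ribosomes and transports nothing. Among aquaporins, *Aqp1*, *Aqp3* and *Aqp7* were higher (log2 fold changes 2.11, 3.71 and 3.74) and *Aqp4* was lower, at 0.511, 0.279 and 1.75 CPM in positive and 31.8, 24.9 and 32.3 CPM in negative libraries (log2 fold change -5.17 ± 0.41 (SE), adjusted p = 3.46e-09). Potassium channel subunits gave 3 higher and 10 lower of 32, a share of lower calls close to the background. The higher *Kcnk5*, a background potassium channel, was at 59.4, 44.6 and 46.2 against 11.3, 9.26 and 10.9 CPM (log2 fold change 2.26 ± 0.32 (SE), adjusted p = 2.29e-06), and the lower *Kcnn4*, a calcium-activated channel, at 0.192, 0.836 and 1.31 against 10.2, 12.3 and 11.1 CPM (log2 fold change -3.85 ± 0.52 (SE), adjusted p = 1.15e-06). The lower count of potassium channel subunits was 5 or 6 without positive replicate 1, 2 or 3 or without negative replicate 1.

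Uptake of iron and vitamins gave 8 higher and 2 lower of 16 tested genes. *Cubn*, the receptor for vitamin B12 bound to intrinsic factor, was at 661, 361 and 546 CPM in positive and 36.3, 32.1 and 36.6 CPM in negative libraries (log2 fold change 3.90 ± 0.46 (SE), adjusted p = 2.11e-07). *Heph*, the ferroxidase that helps export iron, was at 223, 198 and 242 against 34.7, 44.0 and 57.2 CPM (log2 fold change 2.28 ± 0.27 (SE), adjusted p = 2.26e-07), *Slc46a1*, the folate carrier, at 34.2, 17.1 and 19.5 against 2.35, 3.60 and 2.66 CPM (log2 fold change 3.03 ± 0.48 (SE), adjusted p = 9.79e-06), and *Slc39a4*, the zinc importer, had a log2 fold change of 2.02. *Tfrc*, the transferrin receptor through which dividing cells take up iron from blood, went the other way, at 5.11, 10.1 and 17.2 against 95.6, 105 and 209 CPM (log2 fold change -3.66 ± 0.42 (SE), adjusted p = 1.47e-07). *S100g*, the calcium-binding protein of calcium absorption, was also lower, but at low levels (3.64, 1.48 and 1.51 CPM in negative libraries). In retinoid handling 3 of 8 tested genes were higher and 0 lower. *Rbp2*, which binds retinol in enterocytes, was at 501.3, 625 and 531 against 58.7, 81.1 and 51.3 CPM (log2 fold change 3.12 ± 0.44 (SE), adjusted p = 2.04e-06), and *Aldh1a1*, which makes retinoic acid, had a log2 fold change of 1.09 ± 0.29 (SE).

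For purine breakdown and nucleoside uptake, of 14 genes, 9 were higher and 3 lower. The higher genes included degrading enzymes: *Enpp3*, which splits extracellular nucleotides, at 409.6, 179 and 331 against 21.1, 16.9 and 23.8 CPM (log2 fold change 3.90 ± 0.36 (SE), adjusted p = 1.73e-08), *Gda*, guanine deaminase, at 683, 758 and 816 against 48.7, 95.2 and 73.0 CPM (log2 fold change 3.38 ± 0.46 (SE), adjusted p = 1.15e-06), and *Xdh*, xanthine dehydrogenase, at 409.9, 485 and 349 against 26.4, 67.2 and 36.9 CPM (log2 fold change 3.25 ± 0.47 (SE), adjusted p = 2.33e-06). *Hprt*, which salvages purine bases, and the equilibrative nucleoside carrier *Slc29a1* were among the lower ones, and the lower count was 2 without positive replicate 1, positive replicate 2 or negative replicate 3. *Hprt* was at 23.3, 11.1 and 36.1 CPM in positive and 81.8, 59.5 and 103 CPM in negative libraries (log2 fold change -1.79 ± 0.38 (SE), adjusted p = 0.000335), and *Slc29a1* at 0.0639, 0.669 and 0.583 against 5.31, 5.27 and 4.11 CPM (log2 fold change -3.45 ± 0.71 (SE), adjusted p = 0.000217).

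Xenobiotic metabolism had 15 higher and 2 lower of 27 genes, with 0 or 1 lower when any 1 library but negative replicate 2 was left out, and 10 higher without negative replicate 2. Of the cytochromes P450, which metabolise drugs and fatty acids, 38 were tested out of 99 in the family, and 15 were higher and 2 lower (1 lower without positive replicate 1 or positive replicate 2). *Cyp3a11*, which oxidises many drugs, was at 408, 180.1 and 313 CPM in positive and 28.2, 15.4 and 24.4 in negative libraries (log2 fold change 3.73 ± 0.39 (SE), adjusted p = 4.62e-08), *Cyp2b10* at 46.1, 34.1 and 58.1 against 3.03, 4.4996 and 2.66 CPM (log2 fold change 3.76 ± 0.47 (SE), adjusted p = 5.32e-07) and *Cyp4v3*, a fatty acid hydroxylase, at 419, 256 and 577 against 58.2, 44.9 and 82.99 CPM (log2 fold change 2.75 ± 0.35 (SE), adjusted p = 3.97e-07). Other enzyme families did not follow. UDP-glucuronosyltransferases gave 1 higher and 3 lower of 12 (1 lower without positive replicate 1, positive replicate 2 or negative replicate 3). Glutathione S-transferases gave 2 higher and 6 lower of 23. In both families the share of lower calls was near the background. *Mgst1*, a membrane-bound glutathione transferase, was at 20.8, 18.4 and 54.6 against 143, 100.9 and 168 CPM (log2 fold change -2.14 ± 0.41 (SE), adjusted p = 8.92e-05). Reads of near-identical members of these families may be split between copies, so single members are less certain than the counts of the family. For bile acid handling 6 of 8 tested genes were higher and 0 lower, and the carriers *Slc51a* and *Slc51b*, which form the basolateral exporter, had log2 fold changes of 1.35 and 2.29.

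Central metabolism was mixed. In fatty acid oxidation and ketogenesis 7 of 24 genes were higher and 0 lower, with 2 lower without negative replicate 2, 3 lower without positive replicate 3, and 12 higher with offsets for GC content and length. *Ehhadh*, of the peroxisomal route, was at 57.7, 49.9 and 73.9 against 16.6, 10.8 and 39.2 CPM (log2 fold change 1.44 ± 0.35 (SE), adjusted p = 0.00136). *Hadha*, of the mitochondrial route, had a log2 fold change of only 0.94 ± 0.26 (SE), and *Cpt1a*, the carnitine transferase that gates mitochondrial entry, was not called (0.04, adjusted p = 0.93). The TCA cycle split into 7 higher and 6 lower of 20 genes. Citrate synthase (*Cs*) was at 342, 419.8 and 386 against 77.9, 104 and 128 CPM and the oxoglutarate dehydrogenase subunit *Ogdh* at 374, 422 and 421 against 65.5, 112 and 109 CPM (log2 fold changes 1.89 ± 0.31 and 2.09 ± 0.26). On the other side fumarase (*Fh1*) was at 11.7, 14.9 and 27.0 against 73.3, 66.7 and 112 CPM and the NADP-dependent isocitrate dehydrogenase *Idh2* at 6.32, 6.74 and 12.4 against 32.1, 26.2 and 39.5 CPM (-2.24 ± 0.36 and -1.95 ± 0.28). The count of lower TCA cycle genes was 3 without positive replicate 2 or negative replicate 3. In glycolysis 7 genes were higher and 3 lower of 20 (1 lower without positive replicate 1 or negative replicate 3), with *Pklr*, *Pfkp* and *Pkm* among the higher (log2 fold changes 1.78, 1.46 and 1.19) and the pyruvate dehydrogenase kinase *Pdk1* among the lower (-1.46, adjusted p = 0.0881 without negative replicate 3).

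For genes of cholesterol supply, of 23 genes, 2 were higher and 10 lower. *Sqle*, squalene epoxidase, was at 3.96, 5.46 and 14.6 CPM in positive and 12.0, 20.4 and 28.0 CPM in negative libraries (log2 fold change -1.33 ± 0.39 (SE), adjusted p = 0.00625), and *Mvk*, mevalonate kinase, at 2.17, 1.06 and 2.84 against 7.13, 4.18 and 7.92 CPM (log2 fold change -1.67 ± 0.46 (SE), adjusted p = 0.00403). Both genes were low in both sorts, and *Sqle* overlapped between them. *Sqle* was not called without positive replicate 1, positive replicate 2 or negative replicate 3 (adjusted p = 0.0571, 0.073 and 0.0509), nor *Mvk* without positive replicate 2 (adjusted p = 0.0514). The higher genes included *Sc5d*, which acts late in the pathway (log2 fold change 1.25). The count of lower genes of cholesterol supply was unstable: 2 without positive replicate 2, 3 without negative replicate 3, and 6 each without positive replicate 1, with scaling by library size alone or in the jejunum libraries alone.

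Genes known from the tip of the villus were all higher, 9 of 9 tested. *Fos* and *Junb* among them are also in the list of immediate early genes below, and *Fos* overlapped between the sorts. *Klf4*, a transcription factor of mature and goblet cells, was at 289.9, 262 and 179 CPM in positive and 17.0, 41.3 and 14.6 CPM in negative libraries (log2 fold change 3.33 ± 0.38 (SE), adjusted p = 1.47e-07). *Krt20*, a keratin of mature epithelium, was at 2148, 1997 and 1306 against 161, 304 and 172 CPM (log2 fold change 3.10 ± 0.38 (SE), adjusted p = 2.48e-07), and *Junb*, an AP-1 subunit, at 89.0, 90.9 and 54.7 against 24.1, 33.7 and 12.5 CPM (log2 fold change 1.74 ± 0.32 (SE), adjusted p = 5.35e-05). Antimicrobial genes of the villus base gave 0 higher and 3 lower of 9, and 1 lower without positive replicate 1, positive replicate 2 or negative replicate 3. The lectins *Reg3b* and *Reg3g* scattered within each sort, *Reg3b* at 514, 963 and 1893 CPM in positive and 249, 1578 and 853 CPM in negative libraries, and neither was called. *Reg1* was lower (-3.24 ± 0.49) but near 0 in positive libraries, and *Lypd8*, which keeps bacteria off the epithelium, was at 142, 128 and 311 against 267, 327 and 532 CPM (log2 fold change -0.95 ± 0.35 (SE), adjusted p = 0.0273), with overlap. *Lypd8* was not called without positive replicate 1, positive replicate 2 or negative replicate 3 (adjusted p = 0.135, 0.22 and 0.189), with DESeq2's size factors, library size alone or the jejunum libraries alone (adjusted p = 0.0529, 0.155 and 0.0938), or with offsets for GC content and length (log2 fold change -0.22, adjusted p = 0.613). Keratins gave 3 higher (1 without negative replicate 1) and 3 lower of 12, and beside the higher *Krt20*, *Krt19*, at 53.2, 73.8 and 198 against 543, 520.3 and 1268 CPM, and *Krt7* were lower (-2.84 ± 0.42 and -2.18 ± 0.35).

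Crypt genes formed the opposite pole. Of 19 genes of stem cells and Wnt targets, 18 were tested, 0 were higher and 16 lower. *Lgr5*, the receptor that marks stem cells, was at 0.319, 0.111 and 1.24 CPM in positive and 6.82, 16.6 and 5.20 CPM in negative libraries (log2 fold change -4.14 ± 0.82 (SE), adjusted p = 0.000157). *Olfm4*, another stem cell gene, was at 48.6, 25.7 and 281 against 1600.2, 1318 and 2325 CPM (log2 fold change -3.88 ± 0.64 (SE), adjusted p = 1.55e-05). *Cd44*, a Wnt target of the crypt, was at 2.11, 0.78 and 1.38 against 23.2, 40.2 and 17.3 CPM and *Ephb2*, another, at 2.75, 1.56 and 2.91 against 26.2, 24.1 and 20.1 CPM (log2 fold changes -4.24 ± 0.41 and -3.29 ± 0.36). *Ascl2*, a transcription factor of stem cells, was at 0, 0 and 0 CPM in positive and 2.20, 1.61 and 2.36 CPM in negative libraries, at least 10.7-fold lower in positive cells with the floor taken per library. Positive replicate 3 held more *Olfm4* than the other positive libraries, and that library also had the most Paneth cell transcripts. The count of lower genes among the stem cells and Wnt targets was 14 without it, in place of 16.

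All 41 genes of the cell cycle and DNA replication were tested, 0 were higher and 39 lower, with a median log2 fold change of -3.66. *Mcm3*, a subunit of the replicative helicase, was at 1.28, 1.17 and 3.35 CPM in positive and 27.1, 30.7 and 33.4 CPM in negative libraries (log2 fold change -3.99 ± 0.40 (SE), adjusted p = 4.1e-08). *Cdk1*, the kinase that drives mitosis, was at 1.15, 0.725 and 2.26 against 33.8, 23.4 and 35.3 CPM (log2 fold change -4.501 ± 0.46 (SE), adjusted p = 4.37e-08), *Tyms*, which makes thymidylate, at 1.02, 1.003 and 2.33 against 29.6, 18.3 and 27.1 CPM (log2 fold change -4.12 ± 0.42 (SE), adjusted p = 4.37e-08), and *Pole*, a replicative polymerase, at 0.0639, 0.0557 and 0.51 against 11.8, 9.90 and 8.95 CPM (log2 fold change -5.65 ± 0.59 (SE), adjusted p = 4.92e-08). In each case positive replicate 3 was the highest of the positive libraries and still far under every negative library. The licensing factors *Cdt1* and *Cdc6* were the members not called (log2 fold changes -0.64 and -0.80). The summed share of these genes in nuclear protein-coding counts was 0.0166%, 0.0154% and 0.0284% in positive and 0.342%, 0.325% and 0.314% in negative libraries.

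Promoters of the mitotic genes are printed for 3 members of the list that moved together, because they hold 2 short motifs known from genes of late cell cycle: the CCAAT box (letters CCAAT) and the cell cycle homology region (CHR, letters TTTGAA). Each sequence is the 250 bases before the gene's start in RefSeq on GRCm38.p6, read 5′ to 3′ on the gene's strand, with matches on either strand in capitals.
Ccnb2: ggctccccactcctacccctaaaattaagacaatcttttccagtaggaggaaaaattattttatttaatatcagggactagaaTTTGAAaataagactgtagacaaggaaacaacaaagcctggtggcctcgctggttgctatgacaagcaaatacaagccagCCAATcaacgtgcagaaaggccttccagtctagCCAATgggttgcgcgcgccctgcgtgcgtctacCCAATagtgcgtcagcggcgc
Cdc20: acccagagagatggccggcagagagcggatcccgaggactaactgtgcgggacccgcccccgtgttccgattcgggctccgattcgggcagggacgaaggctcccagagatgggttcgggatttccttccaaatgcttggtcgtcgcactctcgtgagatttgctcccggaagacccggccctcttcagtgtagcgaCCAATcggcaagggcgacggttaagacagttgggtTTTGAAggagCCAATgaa
Cdk1: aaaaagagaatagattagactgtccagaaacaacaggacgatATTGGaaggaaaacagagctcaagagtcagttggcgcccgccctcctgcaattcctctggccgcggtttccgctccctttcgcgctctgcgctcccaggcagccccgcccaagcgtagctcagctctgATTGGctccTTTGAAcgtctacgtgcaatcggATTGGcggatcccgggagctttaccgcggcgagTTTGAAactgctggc
*Ccnb2*, a mitotic cyclin (chr9:70421555-70421804, reverse strand), was at 1.02, 0.557 and 1.82 CPM in positive and 13.8, 13.2 and 21.04 CPM in negative libraries (log2 fold change -3.84 ± 0.47 (SE), adjusted p = 2.7e-07). *Cdc20* (chr4:118437344-118437593, reverse strand), an activator of the ligase that ends mitosis, was at 0.128, 0.725 and 1.31 against 10.1, 13.8 and 12.6 CPM (log2 fold change -4.08 ± 0.72 (SE), adjusted p = 3.71e-05), and the *Cdk1* promoter lies at chr10:69352913-69353162, reverse strand. Of 33 list genes with promoters, 25 held a CCAAT box, 76.5% of their promoters, against 35.4% of the promoters of all genes tested and 33.8% of all 32851 promoters in the table. A CHR was in 26.5% of the list's promoters and 10.9% of those of genes tested. An E2F motif (TTTGGCGC or TTTCCCGC) was in 14.7% and 2.37%. A match of letters is a description and not evidence of a bound factor.

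**Figure D3:**
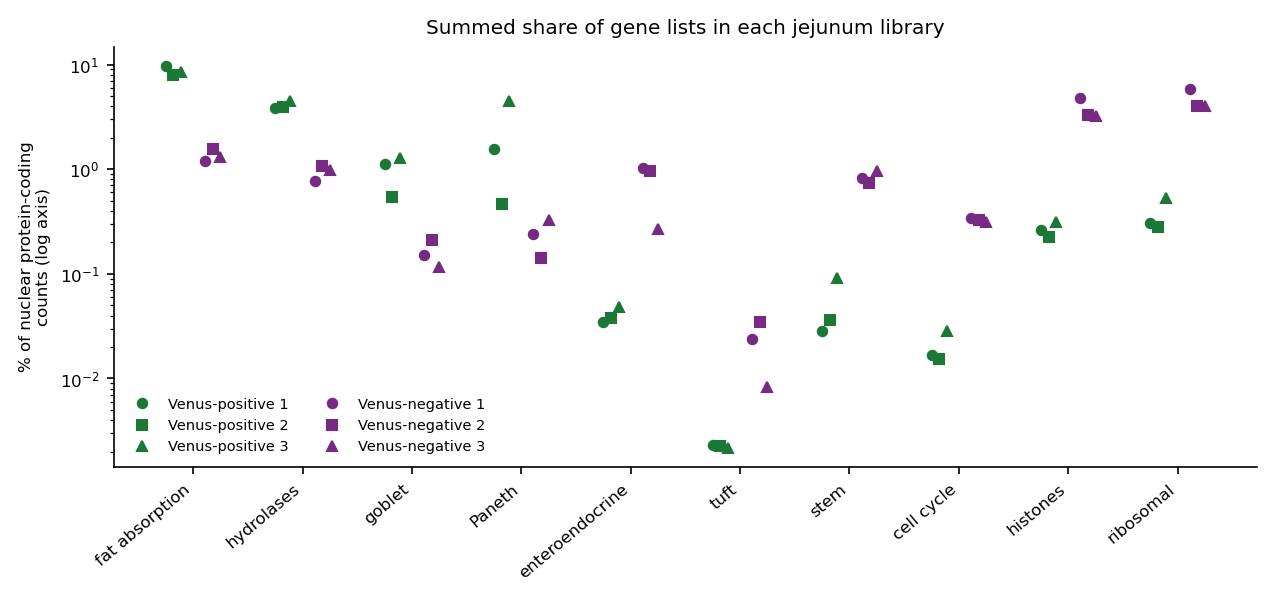
Summed share of 10 gene lists in the nuclear protein-coding counts of each jejunum library, in percent on a log axis. Green marks Venus-positive and purple Venus-negative libraries, and the marker shape gives the replicate. The sorts do not overlap for any of the 10 lists, the Paneth share spans 0.469% to 4.5% among positive libraries, and the enteroendocrine share of negative replicate 3 is 0.267% against 1.02% and 0.957% in the other negative libraries.

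Histones were lower as a family. Of 68 genes tested out of 82, 0 were higher and 63 lower. *Hist1h1b* (chromosome 13, 21779883 to 21780625, reverse strand, GRCm38), a linker histone, was at 31.5, 33.5 and 72.7 CPM in positive and 1022, 808 and 804 CPM in negative libraries (log2 fold change -4.26 ± 0.39 (SE), adjusted p = 1.73e-08), and *Hist1h2bg* and *Hist1h2bk*, core histones, had log2 fold changes of -4.11 ± 0.38 and -4.36 ± 0.40 (SE). Histones took 0.263%, 0.223% and 0.313% of nuclear protein-coding counts in positive and 4.82%, 3.27% and 3.24% in negative libraries. The libraries were made from total RNA, and most histone transcripts have no poly(A) tail and near-identical copies, so single histone genes are less certain than the family.

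Cytosolic ribosomal proteins were lower in 77 of 92 tested symbols, with a median of -3.15. The 4 higher symbols were kinases such as *Rps6ka4*, *Rps6kc1* and *Rps6ka1*, which the symbol pattern takes in and which are no part of the ribosome. *Rpl37* was at 3.58, 3.79 and 8.45 CPM in positive and 112, 85.0 and 60.3 CPM in negative libraries (log2 fold change -4.03 ± 0.39 (SE), adjusted p = 2.48e-08), *Rps20* at 20.6, 12.1 and 23.8 against 253, 159 and 176 CPM (log2 fold change -3.38 ± 0.33 (SE), adjusted p = 3.19e-08) and *Rps24* at 22.7, 18.3 and 37.5 against 466, 334 and 211 CPM (log2 fold change -3.69 ± 0.38 (SE), adjusted p = 4.37e-08). Their summed share was 0.304%, 0.279% and 0.528% in positive and 5.87%, 4.07% and 4.02% in negative libraries. Ribosomal protein genes have many processed pseudogenes, and reads shared with them may be lost from the gene. *Gas5*, a host gene of small nucleolar RNAs, was at 10.4, 12.5 and 16.5 against 106, 72.8 and 74.3 CPM (log2 fold change -2.68 ± 0.33 (SE), adjusted p = 3.61e-07), and *Snhg1* and *Snhg12*, others of that kind, had log2 fold changes of -2.56 and -3.46. They are the lower genes of the list of nuclear long noncoding RNAs, which gave 2 higher and 3 lower of 6 tested.

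The machinery around the ribosome followed. Mitochondrial ribosomal proteins were lower in 66 of 77 tested, with *Mrpl52* at 7.73, 2.90 and 12.2 against 97.1, 65.1 and 75.4 CPM (log2 fold change -3.39 ± 0.38 (SE), adjusted p = 1.17e-07). Translation initiation and elongation factors gave 8 higher and 33 lower of 63. *Eif3e* was at 11.6, 4.79 and 19.1 against 118, 92.9 and 99.6 CPM (log2 fold change -3.13 ± 0.38 (SE), adjusted p = 2.4e-07), and *Eef1b2*, an elongation factor, at 59.4, 37.95 and 112 against 910.1, 554 and 639 CPM (log2 fold change -3.33 ± 0.42 (SE), adjusted p = 4.34e-07). The higher symbols included the kinases *Eif2ak3*, *Eif2ak2* and *Eif2ak1*, which restrain initiation by phosphorylating eIF2 (log2 fold changes 1.89, 1.30 and 1.21). Chaperonin subunits were lower in 7 of 8, among them *Cct5* (27.6, 23.3 and 55.5 against 209, 138 and 280.3 CPM). Proteasome subunits were lower in 25 of 38, such as *Psma5* (-2.45 ± 0.34), splicing factors in 33 of 51 with 4 higher (2 without negative replicate 1, positive replicate 2 or negative replicate 3), such as the core proteins *Snrpd1* and *Snrpe* (-3.65 and -3.01) against *Srsf5* (1.12), and nucleoporins in 14 of 20 with 1 higher. For splicing factors the count of lower genes was 21 when libraries were scaled by size alone.

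Nuclear OXPHOS subunits were lower in 56 of 82 tested genes and higher in 1. *Ndufb6*, of complex I, was at 9.52, 7.25 and 14.3 CPM in positive and 66.8, 43.8 and 46.8 CPM in negative libraries (log2 fold change -2.34 ± 0.30 (SE), adjusted p = 6.3e-07). *Ndufc2*, of the same complex, was at 14.2, 7.47 and 22.2 against 114, 70.3 and 66.2 CPM (log2 fold change -2.52 ± 0.35 (SE), adjusted p = 1.73e-06). *Cox6b2*, the 1 higher gene, was low (3.07, 4.63 and 1.75 CPM in positive libraries), and its call was lost without any 1 library but positive replicate 3 (adjusted p = 0.0593 to 0.125). With offsets for the GC content and length of genes, 37 nuclear OXPHOS subunits were lower and 5 higher. Of 13 mitochondrially encoded OXPHOS subunits, 7 were tested and 3 were lower, with *mt-Nd1* at 1109, 1108 and 1417 CPM in positive and 4044, 4805 and 2389 CPM in negative libraries (log2 fold change -1.63 ± 0.38 (SE), adjusted p = 0.000849). With offsets for GC content and length *mt-Nd1* was not called (adjusted p = 0.203). For the mitochondrially encoded OXPHOS subunits the count of lower genes was 6 without negative replicate 3, the negative library with the lowest mitochondrial share.

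Among the secretory lineages, goblet and Paneth cell genes were higher, and enteroendocrine and tuft cell genes lower. Of 13 goblet mucus proteins 9 were higher and 0 lower. *Zg16*, a lectin of mucus that binds bacteria, was at 771, 315 and 1039.5 CPM in positive and 37.3, 48.0 and 51.4 CPM in negative libraries (log2 fold change 3.96 ± 0.44 (SE), adjusted p = 1.01e-07). *Clca1*, a metalloprotease of mucus, was at 394, 164 and 512 against 23.5, 36.3 and 25.1 CPM (log2 fold change 3.65 ± 0.45 (SE), adjusted p = 2.89e-07), and *Fcgbp*, a cross-linked mucus component, at 2033, 936 and 1899.6 against 139.5, 223 and 96.0 CPM (log2 fold change 3.41 ± 0.45 (SE), adjusted p = 7.88e-07). Each positive library exceeded each negative one for these genes, and positive replicate 2 was the lowest of the positive libraries. For mucin-type O-glycosylation and sulfation 10 genes were higher and 2 lower of 20 (1 lower without positive replicate 2 or negative replicate 3). *Galnt6*, which starts O-glycan chains, was at 201, 159.6 and 145 against 36.4, 50.01 and 29.6 CPM (log2 fold change 2.12 ± 0.25 (SE), adjusted p = 2.2e-07), *Papss2*, which makes the sulfate donor, at 118, 66.1 and 109 against 9.71, 9.06 and 9.43 CPM (log2 fold change 3.38 ± 0.35 (SE), adjusted p = 4.71e-08), and *Slc26a2*, the sulfate carrier, had a log2 fold change of 2.12. Genes of ER folding, translocation and unfolded protein response gave 4 higher, 14 lower and 14 not called of 32. *Sec61b*, a subunit of the translocation channel, was at 10.5, 6.02 and 18.1 against 45.4, 37.2 and 34.3 CPM, and *Ssr4*, of the associated complex, at 28.4, 16.6 and 38.04 against 104, 70.3 and 85.7 CPM. *Sel1l*, of the degradation machinery, was higher (log2 fold change 1.78 ± 0.24 (SE), adjusted p = 9.68e-07), as was *Ddit3*, a transcription factor of ER stress (1.94 ± 0.44). The lower count in ER folding, translocation and unfolded protein response fell from 14 to 6 without positive replicate 2, 7 with GC and length offsets and 9 with scaling by library size alone, without positive replicate 1 or without negative replicate 3, and the higher count was 2 without positive replicate 1 and 7 with these offsets.

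Paneth cell products were higher in 11 of 13 genes and lower in 0. The alpha-defensins, antimicrobial peptides packed in Paneth granules, had 11 of 22 symbols tested, all 11 of them higher. *Defa24* (chromosome 8, 21734494 to 21735471, forward strand, GRCm38) was at 3744, 990.4 and 8526 CPM in positive and 336, 174 and 416 CPM in negative libraries (log2 fold change 3.84 ± 0.68 (SE), adjusted p = 3.51e-05). *Itln1*, a lectin, was at 344, 118 and 2189.6 against 37.7, 25.2 and 103 CPM (log2 fold change 4.00 ± 0.80 (SE), adjusted p = 0.00016), and *Ang4*, an antimicrobial ribonuclease, at 234, 73.9 and 564 against 14.6, 12.0 and 29.3 CPM (log2 fold change 3.96 ± 0.96 (SE), adjusted p = 0.00122). These genes varied widely among positive libraries, and in both sorts replicate 3 had the highest and replicate 2 the lowest value of each. The size of the changes rested in part on positive replicate 3: without it 9 Paneth cell products were higher and 1 lower, with a median of 2.38 in place of 3.72, and the log2 fold change was 2.06 for *Itln1*, 2.93 for *Defa24*, 3.04 for *Ang4* and 2.42 for *Lyz1*. *Wnt3*, the signal Paneth cells give to stem cells, was at 0, 0 and 1.68 against 1.59, 4.18 and 0.544 CPM and was not called (adjusted p = 0.14), but was lower without positive replicate 3 (adjusted p = 0.000278). The defensin genes are near-identical copies in 1 cluster, so the split of reads among them is uncertain. Without both libraries of the other i5 index, which include positive replicate 3, 10 Paneth cell products were higher and 1 lower, an alternative chosen after seeing the data.

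Enteroendocrine cell genes were lower in 27 of 30 tested and higher in 0. *Chgb*, a protein of hormone granules, was at 10.4, 19.4 and 15.6 CPM in positive and 635, 833 and 143 CPM in negative libraries (log2 fold change -5.15 ± 0.62 (SE), adjusted p = 2.24e-07). The incretin hormone *Gip* was at 7.66, 9.53 and 11.1 against 375, 339 and 72.5 CPM (log2 fold change -4.80 ± 0.49 (SE), adjusted p = 4.37e-08), and somatostatin (*Sst*) at 7.73, 5.35 and 9.69 against 301, 192 and 97.4 CPM (log2 fold change -4.70 ± 0.57 (SE), adjusted p = 2.54e-07). Negative replicate 3 was the lowest negative library for all 3 genes, but above each positive one, and without it the count of lower genes for enteroendocrine cells was 27. *Tph1*, which makes serotonin, was at 2.04, 0.613 and 0.802 against 18.4, 19.5 and 10.3 CPM (log2 fold change -3.80 ± 0.43 (SE), adjusted p = 1.17e-07). *Ddc* and *Slc18a1*, which make and store amines, were not called. Tuft cell genes were lower in 13 of 18 tested out of 22. *Dclk1* was at 0.575, 1.34 and 0.437 against 8.64, 18.1 and 3.57 CPM (log2 fold change -3.65 ± 0.62 (SE), adjusted p = 2.2e-05), and *Pou2f3*, the factor that specifies tuft cells, was at 0 in all positive libraries and at 4.55, 2.89 and 0.846 CPM in negative libraries, at least 14.4-fold lower with the floor taken per library. For tuft cells the count of lower genes was 7 without positive replicate 2 and 8 without negative replicate 2. With members under the floor set to their bound, the median of the tuft list was -2.63 in place of -3.03.

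Transcription factors of the secretory lineage gave 2 higher and 3 lower of 11, shares near the background of all genes. *Atoh1*, which commits cells to the secretory branch, was at 7.28, 3.07 and 6.85 CPM in positive and 1.67, 0.514 and 0.242 CPM in negative libraries (log2 fold change 2.86 ± 0.57 (SE), adjusted p = 0.000171). *Sox9*, a factor of crypt and Paneth cells, was at 2.17, 1.78 and 5.03 against 31.5, 23.1 and 11.4 CPM (log2 fold change -2.89 ± 0.43 (SE), adjusted p = 4.17e-06), and *Foxa2* had a log2 fold change of -2.60. The Notch pathway, which opposes *Atoh1*, gave 3 higher and 5 lower of 12 tested genes, with 1 higher without positive replicate 2. The ligand *Dll1* was at 19.5, 26.5 and 13.8 against 11.2, 12.5 and 3.45 CPM (log2 fold change 1.14 ± 0.42 (SE), adjusted p = 0.0268), and *Dll4*, another, at 9.64, 15.7 and 10.3 against 2.96, 4.4996 and 1.99 CPM (log2 fold change 1.91 ± 0.35 (SE), adjusted p = 6.41e-05). The receptor *Notch1* was lower, at 1.79, 2.06 and 2.48 against 24.1, 20.8 and 6.71 CPM (log2 fold change -3.02 ± 0.44 (SE), adjusted p = 3.35e-06), as were *Notch2*, at 3.38, 1.06 and 0.437 against 9.93, 11.2 and 5.80 CPM (log2 fold change -2.45 ± 0.58 (SE), adjusted p = 0.000973), and the target *Hes1* (-1.26 ± 0.35). *Dll1* was not called without positive replicate 1, positive replicate 2 or negative replicate 3 (adjusted p = 0.0503, 0.0935 and 0.16), and *Hes1* not with scaling by library size alone (adjusted p = 0.0601). These ligands and receptors lay on opposite sides, without overlap between the sorts.

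EGF family ligands and ErbB receptors were higher in 6 of 11 tested genes and lower in 0. *Tgfa*, a ligand of the EGF receptor, was at 12.3, 13.9 and 11.4 CPM in positive and 2.96, 3.21 and 2.84 CPM in negative libraries (log2 fold change 2.06 ± 0.33 (SE), adjusted p = 9.82e-06), and *Hbegf*, another, at 46.1, 48.7 and 21.9 against 6.82, 18.4 and 6.59 CPM (log2 fold change 1.87 ± 0.38 (SE), adjusted p = 0.000228). *Erbb3*, a receptor of neuregulins, was at 490.5, 279 and 371 against 100.9, 94.0 and 84.1 CPM (log2 fold change 2.03 ± 0.33 (SE), adjusted p = 1.38e-05), and *Errfi1*, a feedback inhibitor of these receptors, at 56.9, 55.5 and 14.8 against 7.43, 12.5 and 5.80 CPM (log2 fold change 2.31 ± 0.39 (SE), adjusted p = 1.97e-05). The other 5 tested members were not called. Enterocyte and regional transcription factors gave 9 higher and 3 lower of 21, with 1 lower without either library of replicate 1 or of replicate 2. *Hnf4a*, a nuclear receptor of enterocyte identity, was at 409.7, 495 and 316 against 120.0, 171 and 151 CPM (log2 fold change 1.46 ± 0.29 (SE), adjusted p = 0.000137), *Maf* at 223, 193 and 196 against 32.0, 36.3 and 22.002 CPM (log2 fold change 2.76 ± 0.32 (SE), adjusted p = 1.65e-07), and *Creb3l3*, which activates lipoprotein genes, at 499.7, 543 and 355 against 23.4, 64.2 and 36.8 CPM (log2 fold change 3.49 ± 0.61 (SE), adjusted p = 3.48e-05). *Nr5a2*, a receptor active in crypts, was lower (-2.51 ± 0.32). The zinc finger proteins named Zfp had 15 higher and 70 lower of 322, the higher ones including *Zfp36*, which destabilises cytokine transcripts (1.86 ± 0.37). Of the Zfp zinc finger proteins 9 were higher without positive replicate 1, 23 with scaling by library size alone and 26 with offsets for GC content and length.

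Genes of interferon response were higher in 17 of 22 tested and lower in 0 (median 2.34). *Irf7*, a transcription factor that amplifies interferon production, was at 98.99, 113 and 89.6 CPM in positive and 8.64, 13.1 and 7.43 CPM in negative libraries (log2 fold change 3.37 ± 0.43 (SE), adjusted p = 4.84e-07). The RNA sensor *Ifih1* (MDA5) was at 84.6, 64.8 and 61.9 against 9.25, 15.2 and 14.9 CPM and *Ddx58* (RIG-I), another, at 42.1, 39.8 and 37.4 against 5.69, 10.2 and 7.86 CPM (2.42 ± 0.32 and 2.33 ± 0.32), and *Stat2*, of the interferon signal, at 37.4, 35.6 and 25.9 against 3.11, 5.34 and 5.26 CPM (log2 fold change 2.85 ± 0.46 (SE), adjusted p = 1.07e-05). *Ifnlr1*, the receptor chain for lambda interferons on epithelium, had a log2 fold change of 2.49 ± 0.49 (SE). All 6 libraries kept the sorts apart for these genes, and no library of the positive sort stood above the rest in all of them. *Trim30a*, *Trim30d* and *Trim25*, ubiquitin ligases of antiviral defence, had log2 fold changes of 3.28, 2.89 and 2.04, and of 44 tripartite motif proteins 13 were higher and 8 lower. Guanylate-binding proteins and p47 GTPases gave 3 higher, 0 lower and 7 not called of 10, with 1 higher without negative replicate 1 or negative replicate 3. *Ddx60*, a helicase of the same response, was at 87.9, 49.8 and 77.8 against 5.76, 5.14 and 7.56 CPM (log2 fold change 3.54 ± 0.45 (SE), adjusted p = 4.19e-07).

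Promoters are shown for 3 genes of the interferon response because 10 of the list's genes hold the interferon-stimulated response element (ISRE, the letters TTTC, any 2 bases and TTTC, on either strand). The windows are again the 250 bases before the RefSeq start on GRCm38.p6, on the gene's strand, with ISRE matches in capitals.
Rsad2: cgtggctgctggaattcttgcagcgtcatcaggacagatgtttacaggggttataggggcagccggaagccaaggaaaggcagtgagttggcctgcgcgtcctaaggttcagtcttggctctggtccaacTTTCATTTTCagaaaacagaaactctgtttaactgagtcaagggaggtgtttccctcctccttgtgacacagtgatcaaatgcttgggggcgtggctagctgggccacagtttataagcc
Isg15: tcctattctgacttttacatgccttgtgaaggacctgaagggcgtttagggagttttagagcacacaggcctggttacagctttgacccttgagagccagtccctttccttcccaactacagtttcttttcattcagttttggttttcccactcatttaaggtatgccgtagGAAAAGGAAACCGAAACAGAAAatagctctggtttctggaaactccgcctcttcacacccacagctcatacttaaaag
Ifit1: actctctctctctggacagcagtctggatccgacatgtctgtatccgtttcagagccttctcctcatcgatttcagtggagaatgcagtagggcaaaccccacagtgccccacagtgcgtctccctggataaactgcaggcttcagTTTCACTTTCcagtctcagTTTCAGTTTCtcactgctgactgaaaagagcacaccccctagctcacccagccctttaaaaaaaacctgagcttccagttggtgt
*Rsad2* (viperin, chr12:26456453-26456702, reverse strand) was at 22.1, 6.97 and 16.03 CPM in positive and 0.758, 1.35 and 0.363 CPM in negative libraries (log2 fold change 4.18 ± 0.71 (SE), adjusted p = 2.28e-05). *Isg15* (chr4:156200819-156201068, reverse strand), a ubiquitin-like modifier, was at 25.5, 11.8 and 16.8 against 1.52, 1.41 and 0.665 CPM (log2 fold change 3.91 ± 0.72 (SE), adjusted p = 5.74e-05), and *Ifit1* (chr19:34640639-34640888, forward strand), which binds viral RNA, at 61.4, 32.6 and 49.99 against 3.03, 6.11 and 4.84 CPM (log2 fold change 3.36 ± 0.58 (SE), adjusted p = 2.49e-05). The *Isg15* window held 3 overlapping matches, that of *Ifit1* 2 and that of *Rsad2* 1. An ISRE was found in 50% of the promoters of the list (10 of 20 promoters, which belong to 18 genes), 2.58% of the promoters of all genes tested, 2.82% of those of genes higher in positive cells and 2.16% of those of genes lower. Of the 10 genes, *Bst2*, *Gbp2* and *Irgm1* were not called, so a match did not go with a call in each case.

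Antigen presentation by MHC class I was higher in 7 of 12 genes and lower in 0. The heavy chain *H2-K1* was at 569, 521 and 521 CPM in positive and 55.2, 93.8 and 75.0 CPM in negative libraries (log2 fold change 2.85 ± 0.35 (SE), adjusted p = 3.22e-07). The heavy chain *H2-D1* was at 331, 395 and 325 against 61.4, 98.2 and 72.5 CPM (log2 fold change 2.18 ± 0.34 (SE), adjusted p = 6.3e-06), and their partner *B2m* at 391, 244 and 471 against 89.7, 93.0 and 121 CPM (log2 fold change 1.86 ± 0.30 (SE), adjusted p = 1.26e-05). *Tapbp*, which loads peptides, had a log2 fold change of 2.12. For MHC class II presentation 4 of 7 genes were higher and 0 lower, among them *H2-Ab1* at 73.3, 219.8 and 87.8 against 6.90, 54.3 and 15.8 CPM (log2 fold change 2.30 ± 0.61 (SE), adjusted p = 0.003) and *Cd74* at 56.6, 271 and 100.3 against 6.14, 88.8 and 31.4 CPM (log2 fold change 1.76 ± 0.67 (SE), adjusted p = 0.0335). Values of *Cd74* overlapped between the sorts, and replicate 2 was the highest of each. *Cd74* was not called with DESeq2 (adjusted p = 0.0544) or without negative replicate 1, positive replicate 2 or negative replicate 3 (adjusted p = 0.129, 0.256 and 0.104). Nor was it called with at least 10 counts in each jejunum library, the jejunum libraries alone or without both D502 libraries (adjusted p = 0.0512, 0.063 and 0.0813). For MHC class II presentation the count of higher genes was 1 without negative replicate 1 or positive replicate 2. It was 2 without negative replicate 3, with DESeq2, in the jejunum libraries alone or without both D502 libraries. The summed share of MHC class II presentation genes in nuclear protein-coding counts was 0.043%, 0.18% and 0.0642% in positive and 0.00769%, 0.0844% and 0.0232% in negative libraries. T cell and intraepithelial lymphocyte genes took 0.000205%, 0.00237% and 0.000436% in positive and 0.000705%, 0.0109% and 0.00157% in negative libraries, and B cell genes 5.12e-05%, 0.000609% and 1.9e-05% in positive and 0.000571%, 0.00167% and 0.000879% in negative libraries. All 3 lists were highest in replicate 2 of each sort, and between the sorts the lymphocyte lists were the lower in positive cells on average; their part in the class II difference was not tested.

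Sensors of bacteria and mediators of pyroptosis were split. Of 23 genes of pattern recognition and pyroptosis 8 were higher and 6 lower. *Naip5*, which senses flagellin, was at 118, 169 and 66.5 CPM in positive and 13.1, 19.8 and 19.6 CPM in negative libraries (log2 fold change 2.75 ± 0.32 (SE), adjusted p = 1.85e-07), and *Naip6*, with the same role, at 184, 268 and 99.7 against 59.4, 58.4 and 41.7 CPM (log2 fold change 1.79 ± 0.34 (SE), adjusted p = 8.81e-05). *Nlrp9b*, an inflammasome sensor of the epithelium, was at 45.7, 116 and 28.5 against 2.73, 12.2 and 1.45 CPM (log2 fold change 3.53 ± 0.62 (SE), adjusted p = 3.11e-05). *Gsdmd*, the pore-forming gasdermin, was at 172, 305 and 199.6 against 14.9, 43.8 and 20.5 CPM (log2 fold change 3.09 ± 0.37 (SE), adjusted p = 2.1e-07), whereas *Gsdmc4* and *Gsdmc2*, of another gasdermin class, were lower (-5.01 ± 0.70 and -4.83 ± 0.74). *Pycard*, the adaptor ASC that joins sensors to caspase 1, was at 16.3, 20.5 and 53.2 against 299.9, 233 and 351 CPM (log2 fold change -3.30 ± 0.43 (SE), adjusted p = 6.16e-07). The Naip genes and the Gsdmc genes each lie as similar copies in 1 cluster, so the split within them is uncertain. Epithelial chemokines and cytokines gave 5 higher and 2 lower of 14 tested (1 lower without either library of replicate 1). The chemokine *Ccl6* was at 154, 61.1 and 303 against 18.7, 10.9 and 19.8 CPM and *Cx3cl1* at 36.1, 62.8 and 49.9 against 10.8, 17.0 and 12.3 CPM (3.39 ± 0.47 and 1.89 ± 0.30), *Il15*, which sustains intraepithelial lymphocytes, had a log2 fold change of 2.23, and *Ccl28* was lower (-2.07 ± 0.47). *Ido1*, which degrades tryptophan, was at 12.8, 6.24 and 4.96 against 0.152, 0.386 and 0.242 CPM (log2 fold change 4.88 ± 0.62 (SE), adjusted p = 4.71e-07) and was the 1 call among 6 tested genes of the kynurenine pathway.

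Membrane and cytoskeletal families gave smaller groups. *Cldn4*, a tight junction protein, was at 160.0, 86.9 and 41.9 CPM in positive and 13.7, 17.9 and 4.17 CPM in negative libraries (log2 fold change 3.02 ± 0.54 (SE), adjusted p = 4.15e-05), and *Cldn2*, the pore-forming claudin of crypts, at 0.383, 0.502 and 5.17 against 11.7, 20.1 and 24.3 CPM (log2 fold change -3.25 ± 0.55 (SE), adjusted p = 2.21e-05). Without positive replicate 3, the highest positive library, the log2 fold change of *Cldn2* was -5.37. Of the annexins, *Anxa2* and *Anxa4* were higher (1.98 ± 0.30 and 1.72 ± 0.29) and *Anxa6* lower (-5.27, at 4.398, 3.79 and 0.363 CPM in negative libraries). Rab GTPases had 22 higher and 6 lower of 56 tested symbols, led by effectors of Rab11 rather than GTPases: *Rab11fip3* was at 70.5, 83.7 and 66.3 against 11.2, 17.5 and 8.46 CPM (log2 fold change 2.57 ± 0.38 (SE), adjusted p = 3.18e-06) and *Rab11fip1* had a log2 fold change of 1.78. Without negative replicate 2, 14 Rab GTPases were higher, and without positive replicate 2, 3 were lower. Of 22 lysosomal hydrolases and membrane proteins 7 were higher (31.8%), such as *Lipa*, lysosomal acid lipase (3.19 ± 0.42), and *Npc1* (2.64 ± 0.43). Another 5 were lower (22.7%, near the background of 25.6%), such as *Ctsh* (-2.60 ± 0.40) and *Npc2* (-1.42 ± 0.37), and 10 were not called. For autophagy 4 genes were higher, 1 lower and 12 not called of 17, and the share of higher genes (23.5%) was near the background of 18.3%. Among the higher was *Sqstm1*, the cargo receptor p62, at 94.3, 68.7 and 72.2 against 25.9, 25.5 and 21.1 CPM (log2 fold change 1.70 ± 0.26 (SE), adjusted p = 5.39e-06).

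Aldehyde dehydrogenases gave 8 higher and 2 lower of 16 tested (1 lower with any 1 library left out), with *Aldh3a2*, which oxidises fatty aldehydes, at 102, 67.0 and 109 CPM in positive and 25.8, 28.0 and 28.2 CPM in negative libraries (log2 fold change 1.76 ± 0.28 (SE), adjusted p = 1.2e-05). The carboxylesterases *Ces2c* and *Ces2g*, of one subfamily, lay on opposite sides (2.19 ± 0.38 and -2.61 ± 0.50). Of the S100 proteins *S100a6* was higher, at 37.9, 17.1 and 26.2 against 4.78, 4.63 and 4.65 CPM (log2 fold change 2.53 ± 0.41 (SE), adjusted p = 1.43e-05), and *S100a16* lower (-2.82 ± 0.43). Sox factors, which set cell fates, gave 2 higher and 3 lower of 7. *Sox4*, of progenitors, was at 0.319, 1.34 and 1.17 against 20.7, 26.7 and 14.1 CPM (log2 fold change -4.43 ± 0.39 (SE), adjusted p = 1.73e-08), and *Sox6* had a log2 fold change of 2.01. DEAD-box helicases gave 5 higher and 13 lower of 35. Of 63 tested motors and regulators among the cell division cycle and kinesin genes 15 were higher, such as the vesicle motor *Kif1b* (1.62), and 24 lower, such as the mitotic kinesins *Kif20b* and *Kif15* (-4.27 and -3.03).

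Genes that respond within minutes to handling were given their own list because the cells were digested and sorted. Of 15 immediate early and heat shock genes 6 were higher and 3 lower. *Fos* was at 186, 202 and 57.2 CPM in positive and 37.5, 59.5 and 14.1 CPM in negative libraries (log2 fold change 2.003 ± 0.40 (SE), adjusted p = 0.000184), with overlap, and *Atf3* at 52.7, 27.4 and 17.1 against 5.46, 7.14 and 1.93 CPM (log2 fold change 2.74 ± 0.55 (SE), adjusted p = 0.000177). The chaperones *Hspa8*, at 102, 65.7 and 107 against 328, 203 and 364 CPM, and *Hsph1*, at 1.09, 2.84 and 4.37 against 19.4, 21.8 and 29.1 CPM, were lower. Of 6 tested nuclear long noncoding RNAs 2 were higher and 3 lower, the higher ones being *Malat1* at 6227, 8486 and 2879.8 against 2003, 3196 and 932 CPM (log2 fold change 1.52 ± 0.43 (SE), adjusted p = 0.00493), with overlap, and *Neat1* at 784, 652 and 252 against 63.4, 134 and 29.6 CPM (log2 fold change 2.89 ± 0.43 (SE), adjusted p = 4.23e-06). The part of handling and of RNA quality in the other results was not tested.

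Markers of immune, endothelial, glial and red blood cells were low in both sorts. Of T cell and intraepithelial lymphocyte genes 9 of 14 were tested and 0 were called (1 lower without positive replicate 2), and their summed share of nuclear protein-coding counts was at most 0.0109% in any library. The list summed to 0.766 to 8.30 CPM in positive and 1.36 to 23.6 CPM in negative libraries, highest in replicate 2 of each sort. Of these genes 1 had an unadjusted p below 0.05 in edgeR's test, and DESeq2 called 0. B cell genes gave 2 lower of 5 tested, with *Cd79b* at 0.682, 0.643 and 0.604 CPM in negative libraries, a call lost with any 1 of the 6 libraries left out. The count of lower genes in the list of B cells was 1 without negative replicate 1 or positive replicate 2 and 0 without any 1 of the other 4 libraries. Of the myeloid, glial and red blood cell lists only *Itgam* and *Uchl1* passed the filter, and neither was called. Endothelial genes gave 0 calls among 5 tested, 0 at an unadjusted p below 0.05 and 0 with DESeq2. In the list of fibroblasts and smooth muscle, *Vim*, vimentin, was lower, at 0.255, 0 and 0.656 CPM in positive and 16.2, 17.5 and 5.14 CPM in negative libraries (log2 fold change -5.46 ± 0.92 (SE), adjusted p = 2.12e-05), while the collagens *Col1a1*, *Col1a2* and *Col3a1* were each under 1 CPM in every library. The M cell list summed to 20.7 to 24.9 CPM in positive and 8.28 to 20.5 CPM in negative libraries.

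The level of expression was compared per length as RPKM (the same scaled counts per kilobase of exons). Positive cells spread their counts over fewer genes: the 10 most abundant nuclear protein-coding genes took 11.5% to 15.4% of the nuclear protein-coding counts in positive and 5.65% to 7.92% in negative libraries, and a median of 363 against 857 genes made up the first 50% of them, with no overlap between the sorts. At a mean of at least 1 RPKM, 6836 nuclear protein-coding genes were found in positive and 7706 in negative cells. At 10 RPKM or more the order was reversed, 1578 against 1220, at 100 or more there were 128 and 132, and at 1000 or more 10 and 4. Calls depended on the level. Taking the higher of the mean RPKM of the sorts, 2.98% of 4062 genes under 1 RPKM were higher in positive cells and 25.3% lower. Between 10 and 100 RPKM 51.9% of 1801 genes were higher and 26.8% lower, and between 100 and 1000 RPKM 45.3% of 203 were higher and 42.9% lower. Of the 14 genes at 1000 RPKM or more in a sort, 10 were higher and 4 lower. Low genes carry fewer counts, and the part of that in these shares was not tested.

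**Figure D4:**
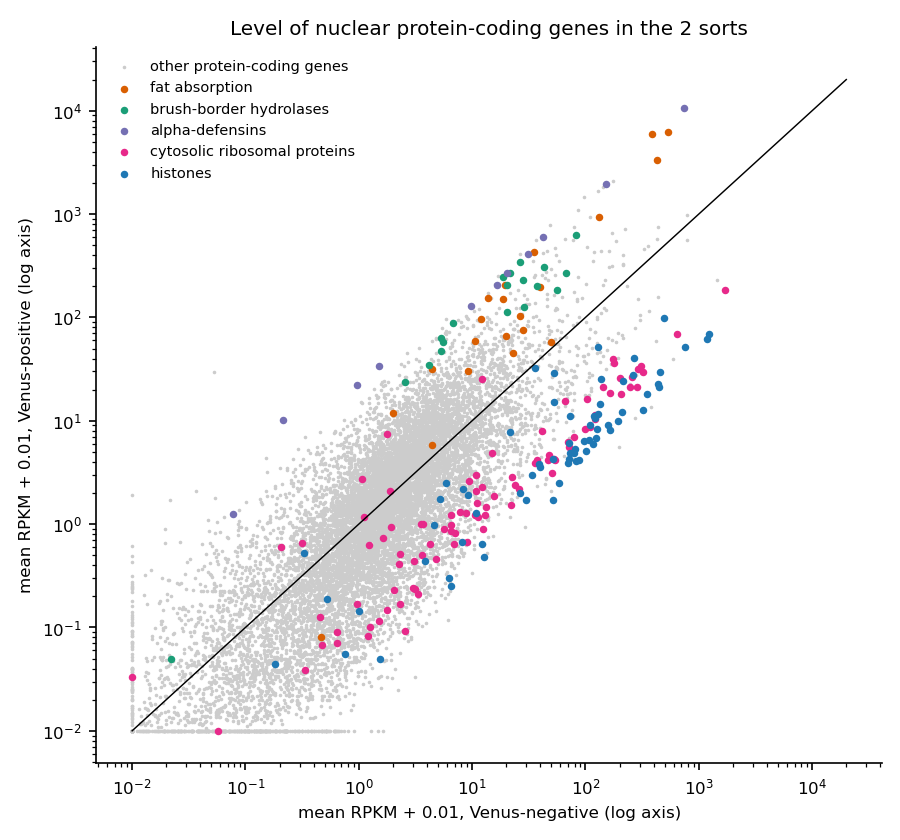
Mean level of nuclear protein-coding genes in Venus-negative (horizontal) and Venus-positive (vertical) cells of the jejunum, in RPKM plus 0.01 on log axes. Each point is a gene, coloured where it belongs to 1 of 5 lists, and the line marks equal levels. Alpha-defensins, fat absorption genes and brush-border hydrolases lie mostly above the line, and ribosomal proteins and histones mostly below it.

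The 10 most abundant genes of positive cells by mean RPKM were products of Paneth cells and enterocytes. *Defa24* was highest at 10549 ± 9099.8 RPKM (SD, n = 3), followed by the apolipoprotein genes *Apoa1* at 6238 ± 238 and *Apoa4* at 5944 ± 1556, and by *Fabp2*, an intestinal fatty acid binding protein, at 3356 ± 1110.0. *Selenop*, a secreted carrier of selenium, was at 2082 ± 743 RPKM, against 175 ± 25.9 in negative cells (log2 fold change 3.58 ± 0.41 (SE), adjusted p = 1.47e-07). *Guca2b* was also among them at 1836 ± 381 RPKM, and *Defa30*, *AY761184*, *Lyz1* and *Gm14851* completed the group. The SD of *Defa24* was nearly as large as its mean, whereas *Apoa1* varied little among the positive libraries. In negative cells the highest were *Rplp1*, a ribosomal stalk protein, at 1696 ± 454 RPKM, *Lgals2*, a galectin, at 1444 ± 418, and the histones *Hist2h2bb* and *Hist1h1b* at 1226 ± 347 and 1182 ± 168. *Lgals2* was lower in positive cells (101.03, 67.4 and 244 against 774, 658 and 1133 CPM, log2 fold change -2.64 ± 0.45 (SE), adjusted p = 2.67e-05), while *Lgals4*, a related galectin of the brush border, was not called (556 ± 83.1 against 785 ± 216 RPKM, adjusted p = 0.275). *Defa24* was among the 10 highest genes of both sorts.

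By size of the change, among called protein-coding genes of at least 10 CPM in the higher sort and without overlap, *Defa34* led the positive direction (log2 fold change 4.44 ± 0.78 (SE), adjusted p = 5.42e-05), but without positive replicate 3 its log2 fold change was 2.65. *Apol9a*, an interferon-inducible apolipoprotein L, came next at 55.4, 31.3 and 36.8 CPM in positive and 1.74, 1.09 and 3.02 CPM in negative libraries (log2 fold change 4.39 ± 0.65 (SE), adjusted p = 4.89e-06). *Sgk2*, a kinase that regulates epithelial ion transport, was at 15.2, 18.7 and 20.99 against 0.682, 1.54 and 0.665 CPM (log2 fold change 4.23 ± 0.65 (SE), adjusted p = 5.99e-06). *Pmp22*, a tetraspan membrane protein, was at 367, 194 and 127 against 15.1, 18.2 and 8.04 CPM (log2 fold change 4.06 ± 0.53 (SE), adjusted p = 6.86e-07), *Susd2*, a membrane protein, at 173, 126 and 167 against 7.43, 7.84 and 12.1 CPM (log2 fold change 4.09 ± 0.59 (SE), adjusted p = 2.39e-06), and *Slc5a12*, a carrier of lactate and other monocarboxylates, at 114, 67.2 and 66.7 against 3.34, 7.26 and 5.74 CPM (log2 fold change 3.92 ± 0.66 (SE), adjusted p = 1.94e-05). The largest changes in this direction thus included Paneth (*Defa34*), goblet (*Zg16*), interferon (*Apol9a*) and transport (*Slc5a12*) genes, beside others such as *Pmp22* and *Susd2*. In the negative direction *Map1b*, a microtubule protein of neurons, was farthest by the fitted value (0.128, 0 and 0.146 against 20.5, 16.3 and 2.96 CPM, log2 fold change -7.14 ± 0.79 (SE), adjusted p = 9.36e-08). Its positive values were under the floors of their libraries (0.1916, 0.1672 and 0.2186 CPM), so the size and rank of its change are uncertain. *Cdca2*, *Iqgap3*, *Tpx2* and *Spc25*, which serve mitosis or proliferation, had log2 fold changes of -6.21, -5.11, -5.11 and -4.97. *Cplx2* and *Tac1* belong to regulated secretion, of vesicles and of the peptide substance P (-5.55 and -5.00). *Afp*, alpha-fetoprotein, was at 0.0639, 0.167 and 0.874 against 36.5, 13.2 and 12.6 CPM (log2 fold change -5.86 ± 0.70 (SE), adjusted p = 3.08e-07), and *Fabp5*, a fatty acid binding protein, at 0, 0.0557 and 0.947 against 19.2, 13.8 and 5.68 CPM (log2 fold change -5.32 ± 0.81 (SE), adjusted p = 5.22e-06), the reverse of *Fabp1* and *Fabp2* in the same family. Positive libraries were near the floor for these genes, so the sizes of the changes depend on few counts.

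The sort difference in the jejunum was set against that of each other region by an interaction contrast. It differed from the ileum in 0.266% of genes tested (40 genes), from the colon in 9.69% (1458) and from the duodenum in 14.6% (2198). The count against the ileum ranged widely with single libraries left out, up to 226 without jejunum positive replicate 3. Against all 3 regions at once 14 genes passed, all with the same sign throughout, 3 higher and 11 lower, and 9 of them had at least 10 CPM in a jejunum sort. *Creb3l2*, a membrane-bound transcription factor of the secretory pathway, was at 135, 99.1 and 90.4 CPM in positive and 7.36, 15.7 and 8.70 CPM in negative jejunum libraries, and at 6.93 against 4.87 CPM on average in the ileum. The difference of log2 fold changes from the ileum was 2.85 ± 0.53 (SE), adjusted p = 0.00857. *Aqp1*, a water channel, was higher in positive cells of the jejunum (183, 52.9 and 109.7 against 25.1, 20.8 and 34.2 CPM) and at 27.8 against 39.0 CPM in the ileum (difference 2.60 ± 0.48 (SE), adjusted p = 0.00847). *Nek6*, a mitotic kinase, had 73.6, 81.6 and 57.3 against 15.9, 17.998 and 13.4 CPM in the jejunum and 23.2 against 21.96 CPM in the ileum (difference 2.09 ± 0.39 (SE), adjusted p = 0.00857).

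In the other direction, *Ehf*, an epithelial transcription factor of the ETS family, was at 3.51, 2.90 and 4.74 CPM in positive and 32.2, 38.6 and 26.1 CPM in negative jejunum libraries, and at 29.3 against 55.5 CPM in the ileum (difference -2.20 ± 0.41 (SE), adjusted p = 0.00881) and 21.8 against 24.5 in the duodenum (difference -2.95 ± 0.42 (SE), adjusted p = 4.01e-05). *Fdft1*, squalene synthase, belongs to the cholesterol genes that were lower in positive cells of the jejunum. It was no longer called without positive replicate 2 or negative replicate 3, or in the jejunum libraries alone (adjusted p = 0.073, 0.248 and 0.0603). In the ileum the means were 61.6 against 19.6 CPM, so that positive cells there had the higher level. The difference from the ileum was -2.87 ± 0.51 (SE), adjusted p = 0.0059. *Lypd8* had a difference from the ileum of -2.18 ± 0.50 (SE), adjusted p = 0.048, and *Eif2s2*, a subunit of eIF2, had a difference of -1.75 ± 0.37 (SE), adjusted p = 0.0308. The enterocyte markers *Alpi*, *Mep1a*, *Vil1*, *Khk* and *Adh6a* had higher log2 fold changes in the jejunum than in the duodenum. The differences were 3.08, 3.07, 1.75, 2.09 and 3.40 in that order, and none of these genes passed against the ileum. For *Khk* and *Adh6a* the difference exceeded the jejunum's own log2 fold change (0.84 and 2.29), so the duodenum's was negative.

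**Figure D5:**
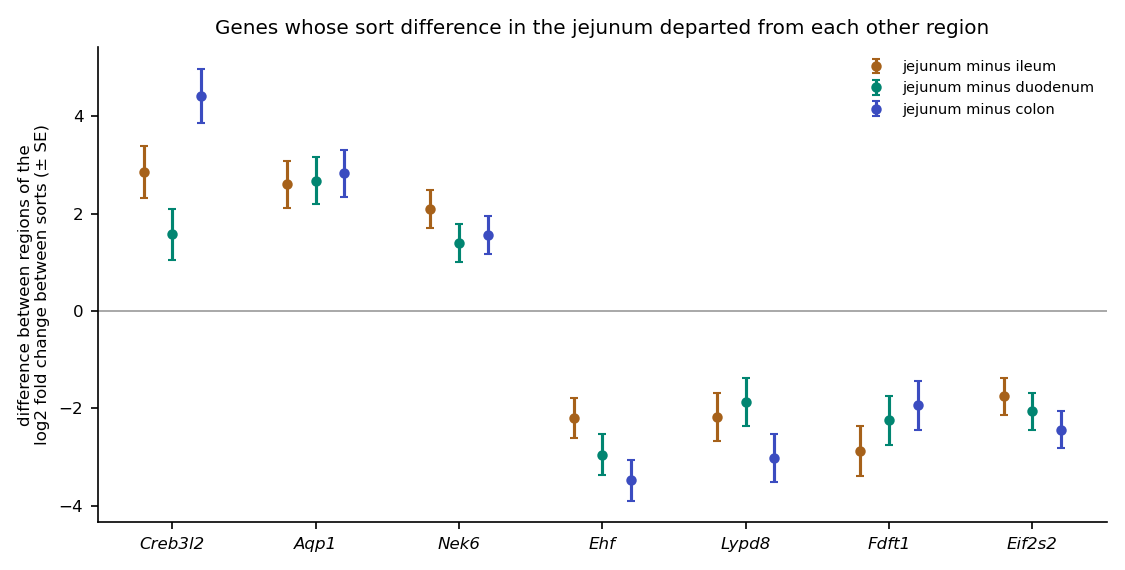
Difference between regions of the log2 fold change between sorts (jejunum minus ileum, duodenum or colon, vertical axis, log2 units) for 7 genes named by rule among those past the threshold against all 3 regions. Points are estimates and bars are ± 1 SE. *Creb3l2*, *Aqp1* and *Nek6* lie above 0 and *Ehf*, *Lypd8*, *Fdft1* and *Eif2s2* below 0 in all 3 contrasts, which share the 6 jejunum libraries.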

How the data were processed

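Venus-positive and Venus-negative jejunum cells were profiled by RNA sequencing from stranded total RNA libraries. The authors sequenced single-end reads, aligned them with STAR (2.5.1, per the submitters' processing notes) to GRCm38 and deposited raw read counts per gene. The annotation and the strand setting of the counts are not given in the sources used here. Rows of reads outside genes were dropped. Of 53465 genes, 53360 matched GENCODE M21, which gave biotype, position and exon length. All 24 libraries of the series were fitted with edgeR 4.0.16 (R 4.3.3), with TMM factors, the default count filter and 1 coefficient per region and sort, at an adjusted p of 0.05. SE is the log2 fold change divided by the square root of F. CPM and RPKM were computed from the deposited counts with TMM-scaled library sizes, and RPKM used the union length of exons. DESeq2 1.42.0 was an alternative. On simulated counts of the jejunum comparison with 200 genes changed 4-fold, edgeR recovered 96 and made 4 false calls, and DESeq2 recovered 110 and made 21. Promoters were taken from RefSeq. No library pair of a group agreed within sampling noise.

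Members and gene lists were chosen with earlier results of these data known. Named genes were *Guca2a*, *Guca2b* and *Gucy2c*, cell type markers, up to 4 called members per list and direction by smallest p (3 per symbol family), the 15 largest changes in each direction and the 10 highest genes of each sort (at least 10 CPM for the former), and up to 5 interaction genes in each direction. Some genes that meet the rule are not reported here. Chosen after their values were seen were *Slc9a3*, *Prkg2*, *Slc26a3*, *Slc26a6*, *Slc4a4*, *Lct*, *Treh*, *Mgam*, *Sis*, *Fbp1*, *Cpt1a*, *Fabp6*, *Slc10a2*, *Reg3g*, *Cdt1*, *Cdc6*, *Ifnlr1*, *Ccnb2*, *Cdc20*, *Isg15*, *Ifit1*, *Bst2*, *Gbp2* and *Irgm1*. Each library was left out in turn, and scaling, filter, threshold, index covariate and GC and length offsets were varied.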

Additional observations from a re-analysis of the deposited data

Results flagged for a closer look

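The difference between Venus-positive and Venus-negative cells of the jejunum departed from that of the ileum in 40 genes, of the colon in 1458 and of the duodenum in 2198, by edgeR's interaction contrast at an adjusted p of 0.05. Every contrast uses the same 6 jejunum libraries, so the 3 are not independent of each other. Sharing of mice between regions was not modelled. The values below are the jejunum's log2 fold change minus that of the other region, in the order ileum, duodenum and colon. In the positive direction they were 2.85, 1.57 and 4.42 for *Creb3l2*, 2.60, 2.68 and 2.83 for *Aqp1*, and 2.09, 1.395 and 1.56 for *Nek6*. In the negative direction they were -2.20, -2.95 and -3.48 for the transcription factor *Ehf* and -2.18, -1.87 and -3.02 for the antibacterial *Lypd8*. The cholesterol gene *Fdft1* gave -2.87, -2.25 and -1.93, and the translation factor *Eif2s2* gave -1.75, -2.06 and -2.43. Against the duodenum alone *Guca2a*, under whose control the reporter is expressed, had a lower log2 fold change in the jejunum (-3.11). The enterocyte markers *Adh6a* (3.40), *Alpi* (3.08), *Mep1a* (3.07), *Khk* (2.09) and *Vil1* (1.75) had a higher one. The values of *Adh6a* and *Khk* exceeded their log2 fold changes in the jejunum (2.29 and 0.84), so those in the duodenum were negative. *Vil1* also differed from the colon (1.27). Whether the sorts of each region hold the same mixture of cells was not tested.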

How the results depend on the processing

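The count of genes higher in Venus-positive cells lay between 2055 and 3562 over all alternatives. The count of genes lower lay between 2484 and 3949, the former where at least 10 counts were asked of each jejunum library, a filter that by construction removes genes nearly absent from 1 sort. Leaving out 1 library gave 2366 to 2651 higher and 2819 to 3682 lower. With the jejunum libraries fitted alone, 2714 were higher and 3007 lower of 12059 genes tested. The contrast with the ileum was the least stable: 40 genes became 130 with DESeq2, 143 without a filter and 18 at an adjusted p of 0.01, and ranged from 24 to 226 with 1 library left out, with 24, 25 and 26 without positive replicate 1, negative replicate 1 or negative replicate 3 and 226 without positive replicate 3. The cause was not tested. The 2198 genes against the duodenum became 1009 at an adjusted p of 0.01 and 1493 to 2651 with 1 library left out. The 1458 genes against the colon became 928 with library size alone, 569 at an adjusted p of 0.01 and 775 to 1958 with 1 library left out, with 923, 795 and 775 without positive replicate 1, negative replicate 1 or positive replicate 2. The difference in mitochondrial share was -15.95 percentage points with all reads as denominator and -25.29 to -16.48 with 1 library left out. Of 282 genes named, 261 were called, and 248 of these kept direction and call under every alternative that gave a value, 13 lost the call under at least 1 and 0 changed direction. The fold change of 59 of the called genes moved by over 1.5 times with some 1 library left out, 38 of them without positive replicate 3, and that of 26 moved by over 2 times. The latter had these log2 fold changes without positive replicate 3: *Abcc1* (-5.01), *Afp* (-7.36), *Aqp4* (-6.22), *Cdca2* (-8.29), *Cldn2* (-5.37), *Defa34* (2.65), *Fabp5* (-8.41), *Gsdmc4* (-7.07), *Itln1* (2.06), *Kcne3* (-5.83), *Lgr5* (-5.45), *Lyz1* (2.42), *Olfm4* (-5.56), *Pole* (-7.24), *Scarb1* (-3.98), *Slc12a2* (-4.59), *Slc7a5* (-4.99), *Tpx2* (-6.62) and *Vim* (-6.65). They were *Cd79b* (-6.30), *Cplx2* (-7.32) and *Notch2* (-3.54) without positive replicate 1, *Atoh1* (3.97) without negative replicate 1, *Cd74* (2.92), *H2-Ab1* (3.48) and *Nlrp9b* (4.93) without negative replicate 2 and *Defa34* (5.49) without negative replicate 3. Among genes not called, *Cpt1a* changed sign with at least 10 counts in each library (-0.11), without both D502 libraries (-0.067) and with 1 library left out (-0.15 to 0.25). *Slc26a3* did so with at least 10 counts in each library (-0.089) and with 1 library left out (-0.21 to 0.40). *Reg3b* did so without both D502 libraries (-0.31) and with 1 library left out (-0.28 to 1.02). No paired analysis was run, because the labels carry no replicate numbers and do not name the mouse. The numbers used here follow accession order, and whether libraries of the same number share a mouse was not tested. Summed shares of the Paneth, MHC class II and T cell lists ranked the replicate numbers in the same order in both sorts. A fit with these numbers as blocks was not made, so its effect on the calls, including those of genes with overlap between the sorts, is unknown. Depth limits genes of low level, where 3 counts are the floor.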
